A study of Mus musculus with 26 samples.

Results

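Auditory cluster 3 is a group of 63 neurons of the mouse thalamus that carried a retrograde label from the auditory system, out of 380 auditory cells and 1972 cells in all. Its members are the cells to which the authors' cell table gives this cluster name, and the table spreads them over 5 animals, called auditory replicates 1 to 5 here. A retrograde label is taken up by axon endings and carried back to the cell body, so it marks a neuron by the place it projects to. Fluorescent cells were picked by hand from dissociated thalamus, and 3' libraries were made that count unique molecular identifiers (UMIs, 1 for each captured transcript), with spike-in RNAs in every cell. The cell table lists all 5 auditory animals as male. It gives the age, without a unit, as 104 for replicates 1 and 2, 81 for replicates 3 and 4 and 70 for replicate 5, and these ages coincide with sequencing batches 1, 2 and 3, so age and batch cannot be told apart. The sources used here name no strain, genotype or labelling agent for these animals. The identifier of replicate 5 also holds 155 visual cells with another sort date, and none of those enter the auditory sums.

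The auditory part of the thalamus, the medial geniculate body, has a core that relays sound to the primary auditory cortex, and around it medial, dorsal and intralaminar cell groups with wider targets. In rodents the calcium buffer calretinin, the product of Calb2, is a classical stain for cells outside the relay core. Neuropeptides are made as precursors, cut and amidated inside dense-core vesicles, and act slowly through G protein-coupled receptors, alongside the fast transmitter of the same cell, which in thalamic projection neurons is glutamate. The clusters were made from these same counts, so comparisons of gene levels between cluster 3 and the other auditory clusters are descriptions without a p-value. Only RNA content, UMIs and genes detected per cell are tested, near the end of the Results.

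Levels are CPM values, UMIs of a gene scaled to a fixed total, of the UMIs summed per animal and cluster, given as mean ± SD over 5 animals, and differences are log2 folds ± SE from a fit with the animal as block. Cluster 3 had 8, 6, 14, 11 and 24 cells in replicates 1 to 5, which held 865662, 1068700, 1265648, 724573 and 1593168 UMIs. Auditory cluster 2, with 212 cells, held 1129084 to 9124389 UMIs per animal, and auditory cluster 1, with 101 cells, 664161 to 2571698. Cluster 3 made up 10.96%, 7.89%, 16.7%, 14.9% and 32.9% of the auditory cells of replicates 1 to 5. The mean share was 16.7% ± 9.69 (SD, n = 5), with the highest value in replicate 5 (exact 95% binomial interval 22.3% to 44.9%, for counting error alone) and the lowest in replicate 2 (2.95% to 16.4%). Picking by hand can set such shares, and no difference between animals was tested. The cells lay on 23 of 26 plates with at most 5 on any plate. Cell names were unique, and the 56 distinct barcodes of the cluster were all also used on another plate.

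The 6 genes of the label separated cluster 3 from both other auditory clusters in every animal. Nts, the precursor of neurotensin, stood at 859, 1739.5, 465, 638 and 622 CPM in replicates 1 to 5. Crh, corticotropin-releasing hormone, stood at 434, 167, 668, 859.8 and 159 CPM, and its order over the animals was not that of Nts. Grp, gastrin-releasing peptide, ranged most widely, at 461, 74.9, 689, 49.7 and 359 CPM. Cartpt, the precursor of CART peptides, stood at 189, 284, 484, 705 and 986 CPM. Adcyap1, the precursor of PACAP, was the most even of the peptide genes at 378, 582, 427, 678 and 311 CPM. Calb2 stood at 2808, 2435, 2050.3, 2132 and 1602 CPM.

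**Figure D1:**
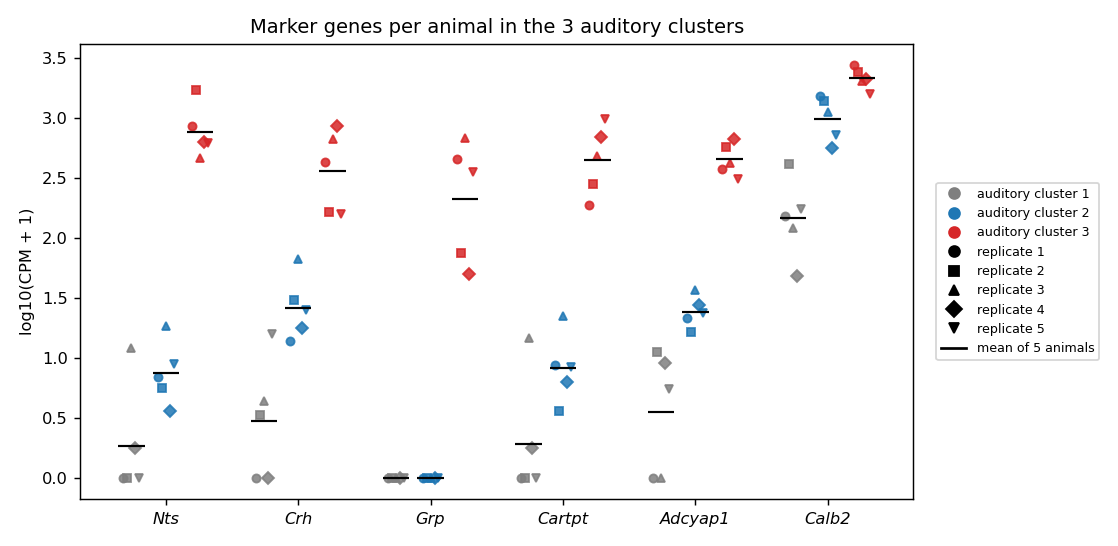
Level of the 6 marker genes as log10(CPM + 1) in each auditory animal (symbols) and cluster (colours), with black bars at the mean of 5 animals. Every cluster 3 value lies above every value of clusters 1 and 2 for the same gene, and Grp is at 0 in all sums of clusters 1 and 2.

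In cluster 2 the same genes were low except for Calb2. Nts had a mean of 7.71 ± 5.77 CPM there, against 865 ± 509 in cluster 3 (log2 fold 7.19 ± 0.68). Cartpt had 8.97 ± 7.41 against 530 ± 323 CPM (6.15 ± 0.64). Adcyap1 had 24.4 ± 7.83 against 475 ± 151 CPM (4.25 ± 0.54), and Crh 29.95 ± 21.1 against 458 ± 309 CPM (4.07 ± 0.69). For Calb2 the difference was a matter of degree, with 1071 ± 424 CPM in cluster 2 against 2206 ± 450 in cluster 3 (1.23 ± 0.29), and without replicate 4 this fold was 0.98 and so short of 2-fold. Grp had no UMI in either other cluster, which makes it at least 2592-fold higher than in cluster 2 and at least 1058-fold higher than in cluster 1, with a floor of 3 counts over the whole cluster. In cluster 1 the other peptide genes had means of 2.39 to 4.58 CPM and Calb2 had 183 ± 139 CPM. Of the cluster 2 sums, that of replicate 3 was the highest for Nts (17.5 CPM), Crh (65.9), Cartpt (21.7) and Adcyap1 (36.5), and it holds 1 cell with 32 Nts, 45 Crh, 41 Cartpt and 39 Adcyap1 UMIs that the authors' joint clustering groups with cluster 3.

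The 5 peptide genes together varied less across animals, relative to their level, than each did alone. Their summed level was 2322, 2846, 2734, 2930.0 and 2437 CPM in replicates 1 to 5, with a mean of 2654 ± 263. Of the single genes, Grp ranged most widely, from 49.7 to 689 CPM, and Adcyap1 was the most even, at 475 ± 151 CPM. A sum of several genes tends to vary less than its parts, and no other gene set was summed. Nothing about a shared control of the peptides is read from it. In cluster 2 the sum was 71.0 ± 39.8 CPM and in cluster 1 14.05 ± 10.7 CPM.

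The upstream sequences of the secreted members were read from the RefSeq promoter table on build GRCm38.p6, to show a motif that is known for peptide genes: the cAMP response element TGACGTCA, its half-site TGACG, and the related AP-1 site TGANTCA, all searched on both strands in the 250 bases before the RefSeq start. Of the 6 label genes, 3 had an entry, and Scg2, a granin described below, is shown with them. Capitals mark the matches, and the sequences run 5′ to 3′ on the strand of the gene. For Nts and Adcyap1 the bases printed end where the GENCODE gene begins. For Cartpt and Scg2 the match lies inside the longer GENCODE gene, so 28 bases around it are shown.
Nts at chr10:102490487-102490668, minus strand: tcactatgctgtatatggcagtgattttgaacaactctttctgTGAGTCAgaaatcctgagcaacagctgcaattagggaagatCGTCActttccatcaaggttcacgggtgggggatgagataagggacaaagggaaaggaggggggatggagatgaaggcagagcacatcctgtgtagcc
Adcyap1 at chr17:93198767-93199016, plus strand: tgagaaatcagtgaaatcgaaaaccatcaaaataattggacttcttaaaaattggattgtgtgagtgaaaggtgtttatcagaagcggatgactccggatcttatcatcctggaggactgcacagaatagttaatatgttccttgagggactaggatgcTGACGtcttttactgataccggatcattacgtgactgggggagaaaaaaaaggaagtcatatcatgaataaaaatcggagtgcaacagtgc
Cartpt at chr13:99900778-99900805, minus strand: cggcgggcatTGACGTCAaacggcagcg
Scg2 at chr1:79440077-79440104, minus strand: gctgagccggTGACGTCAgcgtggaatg
The full element, which contains the half-site on both strands, began 112 bases before the RefSeq start of Cartpt and 68 bases before that of Scg2, and it was present in 1.55% of the 32851 promoters of the table. Adcyap1 had the half-site alone, 91 bases before its start. Nts had a half-site on the opposite strand at 166 bases and an AP-1 site at 207 bases. The half-site occurred in 17.8% of all promoters and the AP-1 site in 6.75%, so a match by itself is common for the short motifs. A match is a description of the letters and no measure of use in these cells.

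Single cells showed that the peptides overlapped within the same neurons. Adcyap1 was seen in 56 of 63 cells (88.9%, exact 95% interval 78.4% to 95.4%), Nts in 48 (76.2%, 63.8% to 86.0%), Cartpt in 44 (69.8%, 57.0% to 80.8%), Crh in 31 (49.2%, 36.4% to 62.1%) and Grp in 14 (22.2%, 12.7% to 34.5%). Calb2 was seen in 62. These intervals cover counting error only. As a background, motor cells, with a median of 103623 UMIs against 77991 in cluster 3, had an Nts UMI in 2.94% of 477 cells and an Adcyap1 UMI in 6.29%. Adcyap1 was seen in 15.5% of 388 prefrontal cells. In cluster 2, of 212 cells, 19.8% had an Adcyap1 UMI, 11.8% a Crh UMI, 7.08% an Nts UMI and 6.60% a Cartpt UMI. None of the cluster 2 cells had a Grp UMI, which allows a share of cells with a UMI of up to 1.42%, taken as 3 counts of the total. It sets no limit on cells that express Grp.

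Of the 63 cells, 44 held 3 or more of the 5 peptide genes. Combinations were uneven: Nts with Cartpt and Adcyap1 was the commonest, in 13 cells, followed by these 3 with Crh, in 12 cells, and by all 5, in 8 cells. Another 12 cells held 2 of the genes, 3 cells held 1 and 4 cells held none. In cluster 2, 5 of 212 cells held 3 or more, and in cluster 1 none of 101, which by the same 3 counts allows up to 2.97% of cells in which 3 are detected. Thinned to 20000 UMIs each, 44 cells of cluster 3 again held 3 or more and 4 held none. Grp was seen in the fewest cells. All 14 cells with Grp had Adcyap1, 13 had Nts and 12 had Cartpt. Over all 63 cells the shares with these genes were already high, at 88.9%, 76.2% and 69.8%, and the overlap with Grp was not tested.

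**Figure D2:**
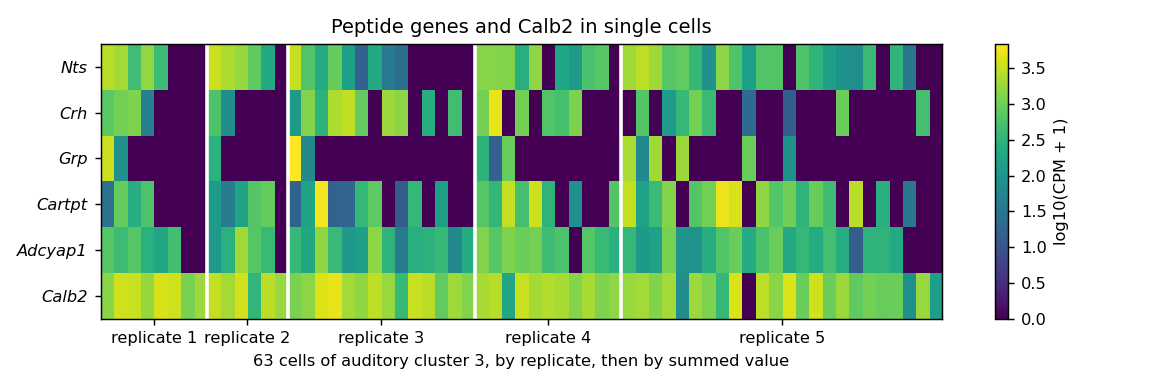
Level of the 5 peptide genes and Calb2 as log10(CPM + 1) in each of the 63 cells of cluster 3, ordered by replicate and then by the sum over the 5 peptide genes. Calb2 is present in 62 cells, Adcyap1 in 56 and Grp in 14, and within each animal the cells run from several peptides to few or none.

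In 3 of the 5 sums the level of Grp rested on 1 cell. In replicate 1, 97.2% of the Grp UMIs came from 1 cell, in replicate 2 all 80, and in replicate 3 99.1%. In replicates 4 and 5, with 3 and 6 cells that held Grp, the top cell had 52.8% and 40.9%. For Crh the top cell held 92.1% in replicate 2 but 20.9% in replicate 3. Adcyap1 was spread more evenly, with 17.3% to 60.5% in the top cell.

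Markers of thalamic neurons were present, but 2 of the 8 on the list, Rora and Lef1, were lower than in both other clusters. Slc17a6, the vesicular glutamate transporter VGLUT2, stood at 742, 459, 646, 524 and 536 CPM in replicates 1 to 5 and was seen in 62 of 63 cells. Its sums lay below those of cluster 2 without overlap, and overlapped with those of cluster 1. Tcf7l2, a transcription factor of thalamic neurons, ranged from 806 to 1220 CPM and overlapped with both other clusters. All 63 cells held 3 or more of the 8 markers on the list, as did all 212 cells of cluster 2 and all 101 of cluster 1. Their summed level was lower, at 5760 to 7483 CPM, than in cluster 2 (9887 to 11195) and cluster 1 (10967 to 12283). The list includes the general neuronal genes Snap25, Rbfox3 and Syt1, so neither the count nor the sum is specific to thalamic neurons.

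Markers of other cell types were seen at low summed levels, with part of each list at 0. The summed GABA neuron list ranged from 78.6 to 271 CPM, with a median of 183 against 52.3 in cluster 2, with Slc32a1, Dlx1 and Dlx6os1 at 0, and with 97 UMIs of Gad2, which makes GABA, in 4 cells, of which 88 lay in 1 cell. Its range overlapped with that of cluster 2 (32.5 to 123 CPM) and lay above that of cluster 1 (14.8 to 42.2), and its part in the results was not tested. The cortical glutamate neuron list had 6 of 8 genes at 0 and a median of 1.87 CPM. The habenular list, at 7.49 to 32.4 CPM, had Pou4f1, Gpr151, Chat and Slc5a7 at 0, and the dopamine neuron list, at 0 to 37.0 CPM, had Th and Slc6a3 at 0. Astrocyte markers summed to 65.9 to 199 CPM with Aqp4, Gja1 and Aldh1l1 at 0, oligodendrocyte markers to 40.8 to 135 CPM with Mobp and Mag at 0, and microglia markers to 191 to 236 CPM with C1qa, Cx3cr1 and Tmem119 at 0. The astrocyte sum lay between 177 and 273 CPM in cluster 2 and the microglia sum between 115 and 182, below every cluster 3 sum. Of 9 microglia markers 4 were seen, and C1qb, a complement subunit, carried most of the sum, at 170 ± 29.8 against 115 ± 26.2 CPM in cluster 2. Slc1a2, a glutamate transporter of astrocytes, carried most of the astrocyte sum, at 91.9 ± 57.0 against 232 ± 34.9 CPM. Their part in the results was not tested. Oligodendrocyte precursor and endothelial or mural markers summed to at most 4.74 and 52.4 CPM. In 2 of 63 cells 3 or more markers of 1 non-neuronal cell type were seen, against 3 of 101 in cluster 1 and 5 of 212 in cluster 2.

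A gene was counted when it differed at least 2-fold and in the same direction in each of the 5 animals. Of 11144 genes tested, 341 (3.06%) were higher and 1084 (9.73%) lower than in cluster 2, and 649 (5.82%) were higher and 866 (7.77%) lower than in cluster 1. Against both clusters 232 (2.08%) were higher and 491 (4.41%) lower. The median log2 fold of all genes was -0.22 against cluster 2 and -0.04 against cluster 1. With libraries scaled by spike-in RNA the median against cluster 2 was -0.04, and the counts were 466 higher and 739 lower than in cluster 2, and 288 higher and 372 lower than in both. The list counts that follow come from the data that made the clusters, so nothing is read from their distance to these percentages.

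Of 24 genes for dense-core vesicles and peptide processing, 20 passed the filter on low counts, and 5 of them, Scg2, Pcsk1n, Scg3, Pam and Rab3b, were counted as higher than both other clusters and none as lower than both. The list median was a log2 fold of 0.48 against cluster 2 and also 0.48 against cluster 1. Scg2, secretogranin II, a granin stored in the vesicles, stood at 4608, 3723, 4350.3, 4934 and 3464 CPM in replicates 1 to 5. No cluster 2 sum exceeded 1898 CPM and no cluster 1 sum 2424 (log2 fold against cluster 2 1.34 ± 0.17). Pcsk1n, whose product proSAAS inhibits the prohormone convertase PC1/3, stood at 1524, 2016, 1555, 1469.8 and 1767 CPM, against at most 564 in cluster 2 (2.26 ± 0.20). Rab3b, a GTPase of vesicle release, stood at 132, 197, 105, 157 and 154 CPM against at most 12.8 in cluster 2 (5.05 ± 0.79, or 4.45 without replicate 2). The groups did not overlap for these 3 genes.

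Scg3, another granin, had 194 ± 130 CPM against 45.2 ± 14.2 in cluster 2 (2.06 ± 0.37), with 411 CPM in replicate 2 and 61.2 in replicate 1. Pam, the enzyme that amidates peptides such as Crh, Grp and PACAP, had 256 ± 115 against 120.5 ± 45.7 CPM (1.13 ± 0.24), and 0.97 without replicate 2. Chgb, chromogranin B, was higher in all 5 animals, at 1439.5 ± 326 against 772 ± 146 CPM (0.96 ± 0.12), just short of 2-fold against cluster 2 and past it against cluster 1. Other parts of the pathway differed little. Cpe, which trims the cut peptides, had 1586 ± 330 against 1321 ± 204 CPM (0.33 ± 0.12), and Pcsk2, the prohormone convertase PC2, had 275 ± 110 against 321 ± 62.7 CPM (-0.25 ± 0.31). Cadps2, a priming factor for dense-core vesicles, was uneven among animals, at 53.1, 0, 65.6, 182 and 73.4 CPM, against at most 7.88 CPM in cluster 2. Furin was the member counted as lower than in cluster 1, at 8.62 ± 8.11 against 17.2 ± 7.95 CPM.

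Among the other neuropeptide precursors of the list, which has 35 genes of which 10 passed the filter, no further gene was higher than both other clusters. The list median of 2.40 against cluster 2 includes the 5 peptide genes of the label, so it does not describe the other members. Log2 folds against cluster 2 were 0.73 for Kiss1, 0.15 for Nppc, -0.43 for Cck and -1.66 for Avp. Cck, cholecystokinin, was abundant in all 3 clusters, at 968 ± 543 CPM in cluster 3 against 1211 ± 271 in cluster 2 and 1306 ± 395 in cluster 1. Nppc, C-type natriuretic peptide, was shared with cluster 2, at 126 ± 28.2 against 119 ± 29.0 CPM, and lower in cluster 1, at 19.5 ± 9.63 CPM (2.75 ± 0.39 for cluster 3 minus cluster 1). Kiss1, Avp and Oxt did not meet the count rule in either comparison. Of the 8 midline and intralaminar thalamus genes tested out of 16, the 6 label genes were higher than both clusters, Cck was not, and the transcription factor Foxp2 was lower than in cluster 2, at 132 ± 52.5 against 355 ± 55.5 CPM (-1.40 ± 0.25).

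Receptors for peptides were mixed. With a median log2 fold of 0.25 against cluster 2 over 10 tested of 35, 3 were higher and 2 lower than in cluster 2, and 4 were higher and 2 lower than in cluster 1. Oprk1, the kappa opioid receptor, stood at 20.8, 72.0, 12.6, 22.1 and 37.0 CPM in cluster 3 and at no more than 2.66 CPM in cluster 2 (6.65 ± 1.45, or 7.79 without replicate 4). It had no UMI in cluster 1, which makes it at least 100.5-fold higher in cluster 3 than in cluster 1. Npy5r, a receptor of neuropeptide Y, stood at 18.5, 15.9, 15.8, 9.66 and 29.5 CPM against at most 5.82 in cluster 2 (3.70 ± 1.47, or 2.86 without replicate 5). Npy1r was also higher than in cluster 2, at 66.6 ± 26.5 against 31.0 ± 13.2 CPM (1.158 ± 0.46).

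Vipr2, a receptor of VIP and PACAP, stood at 0, 2.81, 41.9, 15.2 and 8.79 CPM in cluster 3 against 63.4 to 142 CPM in cluster 2 (-3.30 ± 0.57, or -4.07 without replicate 3). Crhr1, a receptor of Crh, had 5.55 ± 5.96 against 32.8 ± 13.6 CPM (-3.08 ± 1.015, or -3.75 without replicate 3), and it overlapped with cluster 2 and, at 9.24 ± 6.16 CPM, with cluster 1. Ntsr1, a neurotensin receptor, had 0.462 ± 1.03 CPM, from 2 UMIs in replicate 1, against 10.4 ± 10.5 CPM in cluster 2 and 9.71 ± 6.94 in cluster 1. Adcyap1r1, the PACAP receptor PAC1, did not meet the rule against cluster 2, at 24.6 ± 7.40 against 33.5 ± 18.4 CPM, and was counted as higher than in cluster 1, at 12.5 ± 9.09 CPM (1.26 ± 0.80 for cluster 3 minus cluster 1). The Grp receptor gene Grpr did not pass the filter.

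Of 15 receptors for monoamines and acetylcholine that passed the filter, out of 34, 1 was higher and 3 lower than both clusters, and the median log2 fold was -0.98 against cluster 2. The higher gene was Chrm1, the muscarinic M1 receptor, at 2.31, 44.9, 53.7, 115 and 30.1 CPM against at most 20.6 CPM in cluster 2 (2.99 ± 0.97, or 3.72 without replicate 3), and the groups overlapped through replicate 1. The lower genes were Adra1b and Adrb1, adrenergic receptors, and Chrna4, a nicotinic subunit. Adra1b had 11.1 ± 14.3 CPM against 51.0 ± 10.2 in cluster 2 (-2.54 ± 0.76, or -3.38 without replicate 1), and Chrna4 had 53.9 ± 40.2 against 149.8 ± 21.3 CPM (-1.73 ± 0.46). Htr2c, a serotonin receptor, was shared with cluster 2, at 198 ± 73.6 against 193 ± 24.6 CPM, and lower in cluster 1, at 27.2 ± 13.9 CPM.

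The calcium-binding genes, all 20 of them tested, split into both directions, with a median log2 fold of 0.28 against cluster 2. Besides Calb2, Nrgn, Caln1 and Hpcal4 were higher and Pcp4, Vsnl1 and Ncs1 lower than both other clusters. Nrgn, neurogranin, which binds calmodulin at rest, stood at 399, 362, 598, 569 and 532 CPM against 5.31 to 100.4 CPM in cluster 2 (4.19 ± 0.53), and cluster 1 had at most 1.97 CPM. Caln1, calneuron, had 227 ± 133 CPM against 3.67 ± 4.09 in cluster 2 (6.26 ± 0.61) and no UMI in cluster 1, at least 672-fold. Hpcal4, a hippocalcin-like sensor, had 149 ± 35.7 against 43.95 ± 15.4 CPM (1.94 ± 0.65). In the other direction Pcp4, a calmodulin regulator, stood at 461, 126, 1084, 598 and 841 CPM against 723 to 1893 in cluster 2 (-1.28 ± 0.21) and 1340.1 to 4752 in cluster 1. Vsnl1 and Ncs1, neuronal calcium sensors, had 132 ± 79.4 against 371 ± 126 CPM (-1.47 ± 0.28) and 57.1 ± 15.7 against 146 ± 34.5 CPM (-1.30 ± 0.27).

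**Figure D3:**
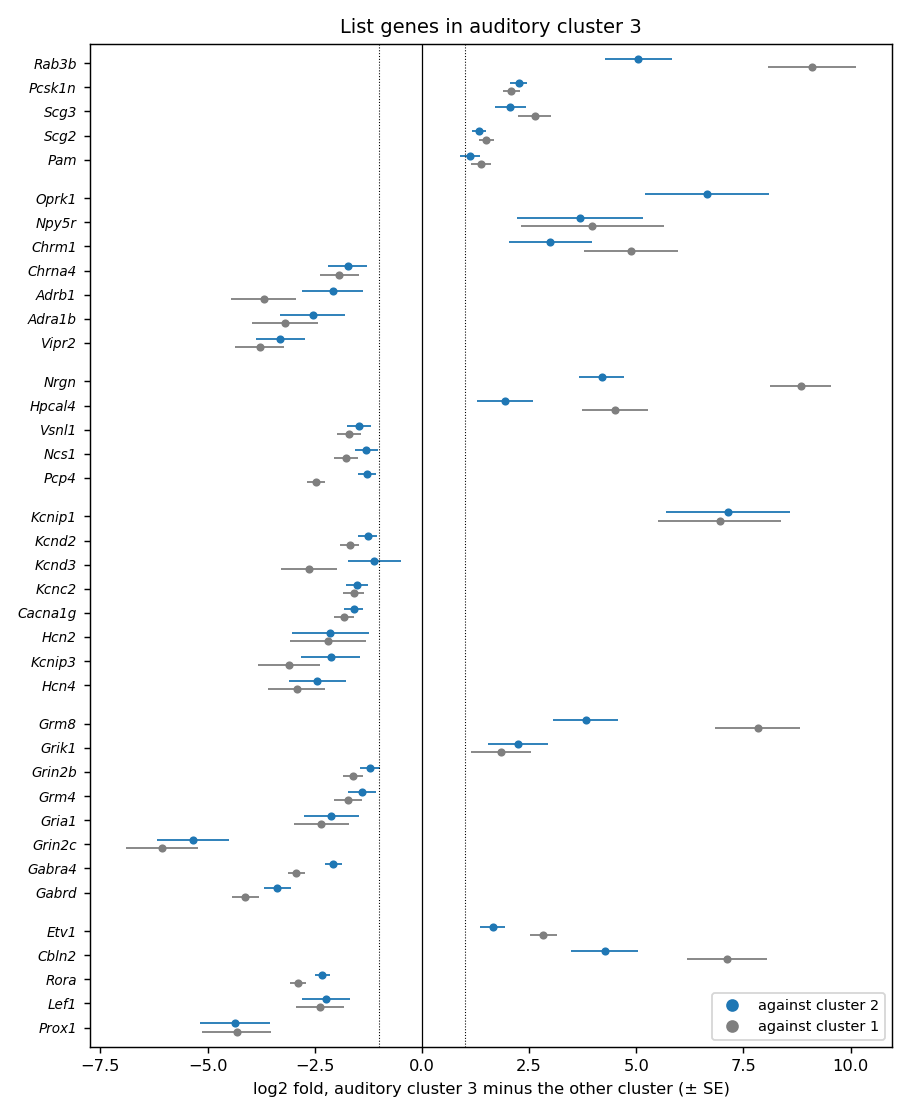
Log2 fold ± SE of cluster 3 minus cluster 2 (blue) and minus cluster 1 (grey) for genes of the lists, in blocks for vesicle machinery, receptors of modulators, calcium-binding genes, channels, amino acid receptors, and transcription factors with a synapse organizer. Dotted lines mark 2-fold, and a cluster whose sums are all at 0, such as cluster 1 for Oprk1, has no point. The vesicle genes shown are the 5 of 20 tested that were counted as higher than both clusters. Their place to the right follows from that choice. Kcnip1 lies opposite to Kcnip3, and Gabrd, Grin2c and Prox1, counted as lower than both clusters, lie to the left in both comparisons.

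Several channels that set burst firing and pacemaking in relay cells were low in cluster 3. Of 19 tested out of 22, 7 were lower than both clusters, with a median log2 fold of -1.11 against cluster 2. Cacna1g, the T-type calcium channel behind the thalamic burst, stood at 68.2, 63.6, 112, 182 and 125 CPM against 229 to 443 in cluster 2 (-1.59 ± 0.23) and 292 to 480.3 in cluster 1. Hcn4, a pacemaker channel, had 14.7 ± 19.1 CPM, with 47.4 in replicate 1 and 1.38 to 15.7 in the others, against 56.6 ± 6.03 in cluster 2 (-2.44 ± 0.66, or -3.13 without replicate 1). Hcn2, another pacemaker channel, was lower too, at 4.01 ± 4.14 against 12.9 ± 7.44 CPM (-2.14 ± 0.90).

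Genes of A-type potassium channels lay in both directions. Kcnip1, an auxiliary subunit of Kv4 channels, stood at 203, 93.6, 279, 148 and 193 CPM against at most 26.3 in cluster 2 (7.14 ± 1.45, or 10.0 without replicate 1). Its relative Kcnip3 had 13.998 ± 15.2 against 51.5 ± 16.1 CPM (-2.13 ± 0.70, or -2.94 without replicate 1). The pore subunits Kcnd2 and Kcnd3 had 139.8 ± 44.5 against 353 ± 64.0 CPM (-1.27 ± 0.22) and 22.04 ± 15.3 against 47.3 ± 13.3 CPM (-1.11 ± 0.62, or -0.73 without replicate 1). Dpp10, a further Kv4 partner, had 48.7 ± 27.0 against 109 ± 35.1 CPM (-1.22 ± 0.36).

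Of the 16 genes for fast firing and neurofilaments, all tested, Kcnc4 was higher and Kcnc2 lower than both clusters, with list medians of -0.26 against cluster 2 and -1.06 against cluster 1. Kcnc2, the fast potassium channel Kv3.2, stood at 273, 186, 142, 200.1 and 65.9 CPM against 383 to 665 in cluster 2 (-1.51 ± 0.25). Kcnc4, its relative Kv3.4, had 51.4 ± 14.9 against 11.7 ± 8.71 CPM (2.58 ± 0.87) and no UMI in cluster 1, at least 153-fold. The light and medium neurofilament genes were higher than in cluster 2, Nefl at 753 ± 150 against 369 ± 55.0 CPM (1.09 ± 0.23) and Nefm at 794 ± 267 against 230 ± 82.5 CPM (1.84 ± 0.27), while Nefm was alike in level in cluster 1, at 728 ± 157 CPM. Against cluster 1, 7 of the 16 were lower, among them Scn1a, a sodium channel, at 229 ± 68.8 against 518 ± 98.8 CPM.

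Of 20 NMDA, kainate and metabotropic receptor genes, all tested, 2 were higher than both clusters, and Grin2c, Grin2b and Grm4 were among those lower than both. Grin2c, an NMDA receptor subunit, stood at 10.4, 0, 0, 0 and 0.628 CPM against 36.5 to 122 in cluster 2 (-5.34 ± 0.84, or -7.73 without replicate 1). Grin2b, another NMDA receptor subunit, and Grm4, a metabotropic receptor, had log2 folds of -1.22 ± 0.23 and -1.39 ± 0.33. Grik1, a kainate receptor subunit, stood at 159, 114, 183, 102 and 94.8 CPM against 1.77 to 63.8 in cluster 2 (2.23 ± 0.69), and Grm8 had 63.1 ± 29.1 against 4.49 ± 2.23 CPM (3.82 ± 0.77). Of 16 AMPA receptor and auxiliary genes tested out of 19, Gria1 (-2.11 ± 0.64), Nptx2 (-1.94 ± 0.78, or -1.33 without replicate 2) and Shisa6 were lower than both and none higher. Shisa6 had 12.7 CPM in replicate 1 and at most 1.58 in the others.

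Of 12 GABA-A receptor subunits tested out of 14, Gabrd and Gabra4 were lower than both clusters, while the list median was 0.15 against cluster 2. These subunits form the receptors of tonic inhibition in relay cells. Gabrd stood at 11.6, 9.36, 11.9, 29.0 and 25.1 CPM against 139 to 228 in cluster 2 (-3.37 ± 0.31) and 228 to 437 in cluster 1. Gabra4 had 60.6 ± 12.97 against 267 ± 50.4 CPM (-2.06 ± 0.19). Neither gene overlapped with cluster 2, and none of the 12 subunits was higher than in cluster 2. Gabra2, a subunit of synaptic receptors, did not meet the rule against cluster 2, at 334 ± 135 against 200.4 ± 68.2 CPM.

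The relay markers of the thalamus were low in cluster 3. Of 15 tested out of 16, 8 were lower than both clusters and none higher than both, with a median log2 fold of -1.52 against cluster 2 and -3.08 against cluster 1. Tnnt1, a troponin gene that marks relay nuclei, stood at 12.7, 1.87, 5.53, 4.14 and 6.90 CPM against 87.3 to 210.0 in cluster 2 (-4.47 ± 0.40) and 340 to 751 in cluster 1. Prkcd, protein kinase C delta, stood at 148, 5.61, 49.0, 11.04 and 13.2 CPM against 274 to 553 in cluster 2 (-3.56 ± 0.56, or -4.41 without replicate 1). Slc17a7, the vesicular glutamate transporter VGLUT1, had 1 UMI in 63 cells, against a mean of 22.8 ± 17.2 CPM in cluster 2. Plekhg1, Ramp3, Cplx1, Kcnab3 and Lef1 were the others, with log2 folds against cluster 2 of -4.01 ± 0.40, -3.34 ± 0.49, -1.52 ± 0.22, -1.86 ± 0.66 and -2.24 ± 0.56.

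Among 27 thalamic transcription factors tested out of 35, Etv1 was higher and Rora, Prox1 and Lef1 were lower than both clusters, with a list median of -0.51 against cluster 2. Rora, a nuclear receptor of relay neurons, stood at 582, 369.6, 378, 209.8 and 237 CPM against 1568 to 2059 in cluster 2 (-2.32 ± 0.18) and 2500.3 to 3061 in cluster 1. Prox1, a homeodomain factor, stood at 40.4, 0, 3.95, 0 and 3.14 CPM against 97.0 to 145 in cluster 2 (-4.36 ± 0.81, or -5.80 without replicate 1). Etv1, an ETS factor, stood at 321, 259, 408, 352 and 363 CPM against 82.8 to 139 in cluster 2 (1.65 ± 0.29). Tcf7l2 was 994 CPM at the median of cluster 3 and 1444 CPM at that of cluster 2, a log2 fold of -0.51.

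In replicate 1 several of these relay genes came from 1 cell of the 8. The authors' joint clustering of all systems places that cell in joint cluster 5, with 87 of 101 cells of cluster 1 and 201 of 212 of cluster 2. It held all 35 Prox1, all 9 Grin2c, all 11 Shisa6 and all 11 Tnnt1 UMIs of the replicate, 120 of 128 Prkcd UMIs and 344 of 504 Rora UMIs. It had no UMI of any of the 5 peptide genes and 86 of Calb2. With the cells of joint cluster 8 alone, the log2 fold against cluster 2 was -7.03 for Prox1, -7.97 for Grin2c, -4.55 for Prkcd and -2.63 for Rora.

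Genes of contact between cells differed in both directions. Of 22 synapse organizers tested out of 26, Cbln2 was higher and Lrrtm1, Nlgn3 and Nrxn3 lower than both clusters. Cbln2, a cerebellin that bridges neurexins to postsynaptic receptors, stood at 677, 1327, 808, 582 and 539.8 CPM against 2.66 to 81.4 in cluster 2 (4.26 ± 0.78). Nrxn3, a neurexin, had 268 ± 115 against 651 ± 103 CPM (-1.25 ± 0.25). Of 27 axon guidance genes tested out of 38, Efnb3 was higher and Epha4 and Robo1 lower than both clusters. Epha4, an ephrin receptor, had 80.4 ± 42.9 against 287 ± 60.1 CPM (-1.87 ± 0.37). Of 19 cadherins tested out of 22, Cdh22 was higher than both, at 36.1 ± 27.5 against 9.96 ± 5.53 CPM (1.83 ± 1.015), and none lower than both. Of 15 immediate early genes tested out of 20, Dusp1 and Ier2 were lower than both (-1.61 ± 0.45 and -1.95 ± 0.75 against cluster 2). None of the 7 mitochondrially encoded genes tested met the rule in either comparison, and the vesicular transporter list gave Slc17a7 alone, of 3 tested.

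The 10 genes with the largest folds up against cluster 2 were Grp, Fam46a, Pxylp1, Icam5, Tpbg, Tmem200a, Nts, Kcnip1, Rasal1 and Ngef. Icam5, telencephalin, an adhesion molecule known from neurons of the telencephalon, was the most even of them, at 20.8, 20.6, 21.3, 19.3 and 18.2 CPM, with no UMI in cluster 2 (at least 145.5-fold) and at most 0.778 CPM in cluster 1. Tpbg, a membrane glycoprotein, stood at 128, 35.6, 133, 311 and 299 CPM. It had no UMI in 3 of the 5 cluster 2 sums and none in cluster 1, against which cluster 3 was at least 550.4-fold higher. Fam46a had 103 UMIs in cluster 3 and none in cluster 2, at least 136-fold. Tmem200a, Pxylp1, Rasal1, a Ras GTPase-activating protein, and Ngef, a guanine nucleotide exchange factor, had means of 40.3, 26.8, 34.1 and 35.8 CPM in cluster 3 and under 1 CPM in cluster 2. Leaving out an animal moved several of these folds, from 7.57 to 9.53 without replicate 1 for Tmem200a, from 8.65 to 9.41 without replicate 1 for Pxylp1, from 7.03 to 8.67 without replicate 3 for Rasal1 and from 6.85 to 7.56 without replicate 3 for Ngef.

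Against cluster 1 the largest folds up were those of Tpbg, Grp, Caln1, Rprml, Ngb, Doc2a, Alcam, Rsph9, Rasal1 and Rprm, and all but Rprm had no UMI in cluster 1. Rprml and Rprm, of the reprimo family, had means of 127 ± 60.9 and 186 ± 133 CPM in cluster 3 and 2.80 ± 4.07 and 5.77 ± 4.72 CPM in cluster 2. Ngb, neuroglobin, had 133 ± 38.2 against 5.88 ± 8.23 CPM, and at least 403-fold more than cluster 1. Doc2a, a calcium sensor of vesicle release, and Alcam, an adhesion molecule, were at least 225-fold and 267-fold higher than in cluster 1, and Rsph9, a radial spoke gene of cilia, at least 90.7-fold.

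The largest folds down were those of genes with no UMI in cluster 3, apart from Slc9a3r1, which had 1 UMI there and 202 ± 125 CPM in cluster 1. Against cluster 2 these were Mob3b, Gckr, Arid5a, Krt12, Cdk6, Il4ra, Adgrg6, Atg9a, Arg2 and Ppm1j, with means of 10.3 to 26.3 CPM in cluster 2. They were at least 12.4-fold (Adgrg6) to at least 58.0-fold (Krt12) lower in cluster 3. Against cluster 1 these were Arid5a, Iltifb, Krt12, Lama5, Zfp169, Aldh16a1, Bmp7, Adamts1 and Hes1, beside Slc9a3r1. Arid5a, an RNA- and DNA-binding protein, was at least 120.1-fold lower than in cluster 1 and Hes1, a target of Notch signalling, at least 24.1-fold. With 63 cells such low genes are near the limit that depth allows, 0.544 CPM for 3 counts over the cluster.

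Set against the 16 other clusters of the 5 projection systems, cluster 3 had the highest mean of each of the 5 peptide genes. The next highest Nts was in prefrontal cluster 4, at 16.9 ± 23.4 CPM (n = 2), against 865 ± 509 CPM in cluster 3. The next highest Cartpt was in somatosensory cluster 3 (25.4 ± 34.7 CPM, n = 2), Adcyap1 in prefrontal cluster 4 (27.3 ± 11.1, n = 2), Crh in auditory cluster 2 (29.95 ± 21.1, n = 5) and Grp in prefrontal cluster 1 (44.1 ± 62.4, n = 2). Nrgn, at 492 ± 105 CPM, had its next highest mean in visual cluster 3, at 45.9 ± 39.2 (n = 4). Scg2 was also highest in cluster 3, at 4216 ± 611 CPM, with auditory cluster 2 next at 1743 ± 141.

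Other genes of cluster 3 were shared with prefrontal cluster 3. Calb2 had 1900.4 ± 341 CPM in prefrontal cluster 3 (n = 2) against 2206 ± 450 here, Kcnip1 had 178 ± 6.40 against 183 ± 68.8, and Doc2a had 66.3 ± 10.6 against 74.7 ± 30.0, differences within the spread between animals. Rab3b and Oprk1 had higher means in prefrontal cluster 3, at 250.1 ± 5.14 and 75.4 ± 1.64 CPM, than in cluster 3, at 149 ± 34.2 and 32.9 ± 23.6 CPM. Prefrontal cluster 4 also had higher means of both, with a wide spread for Rab3b (181 ± 217 CPM, n = 2, and 45.8 ± 21.4 for Oprk1), and had Calb2 at 1141 ± 1233 and Kcnip1 at 101 ± 44.6 CPM. Lef1, Prkcd, Tnnt1 and Slc17a7 had their lowest mean of all 17 clusters in cluster 3 and their next lowest in prefrontal cluster 3, where Tnnt1 had 7.04 CPM and Prkcd 94.8. The peptide genes were not part of this likeness, since Nts had 0.733 CPM and Crh 0.0882 CPM in prefrontal cluster 3. These levels are compared across systems without a test.

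**Figure D4:**
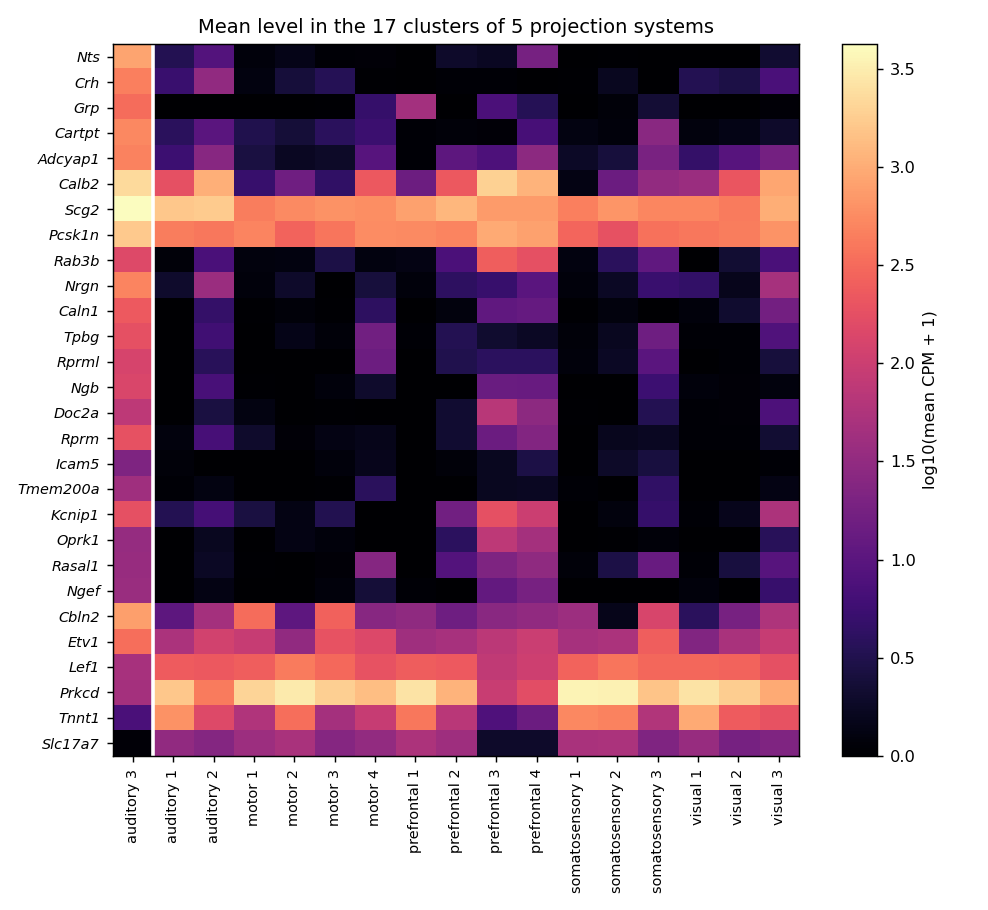
Mean level as log10(mean CPM + 1) of 28 genes in auditory cluster 3 (first column) and the 16 other clusters, over 2 to 5 animals each. The 28 genes were picked from those counted as higher or lower in cluster 3 than in the other auditory clusters. Their ranks follow in part from that choice: 22 have their highest mean in auditory cluster 3 and 4 (Lef1, Prkcd, Tnnt1 and Slc17a7) their lowest. Prefrontal cluster 3 has levels of Calb2 (1900.4 CPM) and Kcnip1 (178) near those of cluster 3 but not of the peptide genes.

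The authors' joint clustering of all systems into 9 clusters kept most of the group together. It groups the same cells, so it is no independent evidence for the cluster. Of its 63 cells, 60 lay in joint cluster 8, which holds 65 cells. The other 5 cells of joint cluster 8 were 2 of auditory cluster 2 and 3 of visual cluster 3. The 3 visual cells came from 3 animals, had 45 to 161 Calb2 UMIs and at most 23 Adcyap1 UMIs, and no Nts, Crh, Grp or Cartpt. Besides the cell of replicate 1 described above, 2 cluster 3 cells of replicate 5 lay in joint cluster 6, and of these 1 had 30 Crh UMIs and the other no UMI of a peptide gene.

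RNA content was measured apart from the gene profile, as endogenous UMIs per spike-in UMI, and compared within animals with a two-sided exact sign-flip test, for which 5 animals allow no p below 0.0625. The medians of cluster 3 were 7.51, 8.85, 13.7, 14.5 and 9.22 in replicates 1 to 5, against 8.89, 10.7, 8.65, 11.3 and 8.40 in clusters 1 and 2 together. Cluster 3 was lower in both animals of batch 1 and higher in the 3 of batches 2 and 3. The mean log2 ratio was 0.13 ± 0.40 (SD, n = 5, exact p = 0.562), so a difference was not detectable. UMIs per cell were higher in cluster 3 in 5 of 5 animals, with a mean log2 ratio of 0.21 ± 0.14 (SD, n = 5, exact p = 0.0625, the smallest possible). Genes detected per cell at 20000 UMIs were 3088, 3328, 3868, 3829 and 3583 in cluster 3 and lower than in clusters 1 and 2 in 4 of 5 animals, by a mean of 66.2 genes with an SD of 193 (n = 5, exact p = 0.438). Over the 9 tests run, which also set cluster 3 against each cluster alone, the Benjamini-Hochberg adjusted values were 0.844, 0.281 and 0.844 in the order given. UMIs per cell and genes detected come from the same counts that made the clusters, so their p-values are no independent check.

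**Figure D5:**
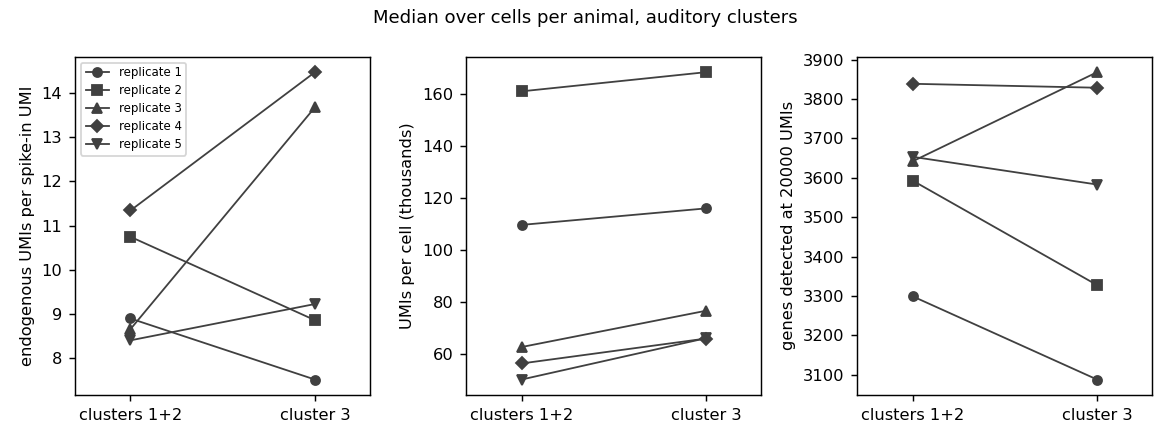
Median over cells of endogenous UMIs per spike-in UMI, of UMIs per cell and of genes detected after thinning to 20000 UMIs, in clusters 1 and 2 together and in cluster 3, with 1 line for each of the 5 auditory animals. UMIs per cell lie higher in cluster 3 in all 5 animals, while the spike-in ratio is higher in 3 and lower in 2.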

How the data were processed

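The authors deposited raw UMI counts per gene and cell for 26 plates without any normalization. Their cell table gives the animal, age, system, cluster and joint cluster of each cell. Per the submitters' processing notes, cutadapt 1.16, Picard 1.12, STAR 2.5.3 and build mm10 were used. The annotation, counting rule and clustering method are not given in the sources used here. Overlapping, antisense or near-identical genes may share UMIs. The cluster, its marker genes and the gene lists were chosen with earlier results of these data known. Counts of the 3 auditory clusters were summed per animal (15 sums of at least 5 cells) and fitted with edgeR 4.0.16 in R 4.3.3: filterByExpr, TMM factors of 0.935 to 1.05, glmQLFit, and the animal as block, since the clusters share animals (8 residual degrees of freedom, biological coefficient of variation 0.702). Named genes are the 10 largest folds per direction and contrast among counted genes with a mean of at least 10 CPM in the higher cluster, without unnamed gene models, and list members. The fit was tested on simulated data. No filter on cells was applied and no doublet caller was run, since cells were picked by hand; no cell of these clusters carried the authors' flag. Alternatives were DESeq2 1.42.0, no filter, no block, other cell minimums, a 4-fold rule, equal weight per cell, left-out animals, batches and marked cells, and, chosen after seeing the data, spike-in scaling and joint cluster 8 cells alone. Figures and exact tests used Python with scipy. Sequences were credited to RefSeq, GRCm38.p6, and gene ends to GENCODE. Some genes of the lists are not reported here.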

Additional observations from a re-analysis of the deposited data

Results flagged for a closer look

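Among 126 values over the 5 cluster 3 sums, 13 had 1 animal far from the other 4. The cut used passes about 1 in 20 sets of independent, normally distributed values. Some values here lie near 0 or come from the same cell, so that rate does not apply and no excess is read from the 13. Replicate 1 stood apart with high values of Ntsr1 (2.31 CPM), Adra1b (35.8), Shisa6 (12.7), Cacng3 (311), Grin2c (10.4), Prox1 (40.4) and Zic1 (229.9 CPM). In the cell of replicate 1 that lies in joint cluster 5 were all Ntsr1, Shisa6, Grin2c and Prox1 UMIs of that sum and 111 of its 199 Zic1 UMIs, but none of its 31 Adra1b or 269 Cacng3 UMIs. Replicate 2 stood apart with a high Pcsk2 (467 CPM) and with Ier2 at 0 CPM. Replicate 3 was high for Rsph9 (78.2 CPM) and replicate 4 for Kcnc1 (287 CPM). In replicate 5, Slc17a7 and Slc9a3r1 each had 0.628 CPM, which is 1 UMI, and 0 in the other 4 sums.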

How the results depend on the processing

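No counted gene changed sign under any alternative in which it was fitted. Counts of genes higher and lower than cluster 2, higher and lower than cluster 1, and higher and lower than both (341, 1084, 649, 866, 232 and 491 as reported) moved by over 1.5 times in these settings. Without a replicate block, where every cluster 3 sum had to lie outside all others, they were 186, 514, 319, 413, 130 and 223. With sums of at least 10 cells, which leaves fewer animals to satisfy, they were 921, 1782, 1276, 1687, 567 and 968. A 4-fold rule gave 136, 536, 325, 417, 113 and 226. Without batch 1 they were 885, 1647, 1218, 1612, 518 and 934, and without batch 2 589, 1934, 1204, 1416, 395 and 890. Leaving out each animal in turn gave 394 to 557, 1259 to 1520, 752 to 911, 1023 to 1368, 268 to 352 and 577 to 797. The top value came without replicate 1 for 557, 1368, 352 and 797. Fewer animals make the same-direction rule easier to meet, so these larger counts follow from how the rule is built.

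The log2 spike-in ratio ranged from -0.0091 without replicate 3 to 0.23 without replicate 2, that of UMIs per cell from 0.17 to 0.25, and the difference in genes detected from -139 to -16.4. Without thinning that difference was 108 (exact p = 0.688, n = 5), the opposite sign. Without pairing by animal the exact p-values of the 3 measures were 0.54, 0.595 and 0.683. Other settings left the counts within 1.5 times. A paired test of 5 animals cannot reach 0.05, so its p-values say nothing about stability. With 6 to 24 cells per sum, genes below about 10 CPM rest on few cells, and folds against sums at 0 depend on the fit.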
